A study of Hordeum vulgare with 18 samples.

Results

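Roots of highland barley (Hordeum vulgare, a hulless barley of high altitudes) that received all of their fertilizer nitrogen in organic form were compared with roots that received all of it as urea. The comparison rests on 6 of the 18 libraries of the study, 3 from roots at 100% organic nitrogen and 3 from roots at 0%, called the control roots here. They were chosen by their labels, not by any measured value. Of the 68630 loci counted, 21895 had enough counts in the roots to be tested, and all of these were tested.

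The plants grew in pots of 3.5 kg of soil and were harvested at flowering, and the study was set up to learn how organic fertilizer in place of chemical fertilizer bears on nitrogen metabolism. A 100% pot held 2793 mg of organic fertilizer and no urea, topped up with superphosphate (1289 mg) and potassium sulfate (96 mg). A control pot held 357 mg of urea and no organic fertilizer, topped up with superphosphate (1545 mg) and potassium sulfate (140 mg). A group at 40% organic nitrogen, with 1117 mg of organic fertilizer and 215 mg of urea, lies between them, with superphosphate (1443 mg) and potassium sulfate (122 mg), and its 3 root libraries shared the fit and are given where they add to the picture. Total nitrogen, phosphorus and potassium were matched across all pots by design. The rates differed in the form of these nutrients and in the amounts of organic fertilizer, superphosphate and potassium sulfate. The matching named covers these nutrients only, and not others such as sulfur or metals. The sources used here do not give the make-up of the organic fertilizer, the hour of harvest or the number of plants or pots behind a library.

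Roots take up nitrate through high-affinity NRT2 transporters, which need the small partner protein NAR2, and through members of the NPF family such as NPF6.3. Nitrate is reduced to nitrite by nitrate reductase in the cytosol and to ammonium by nitrite reductase in plastids, with electrons from ferredoxin that a root ferredoxin-NADP reductase loads from NADPH of the pentose phosphate pathway. Glutamine synthetase and glutamate synthase then build the ammonium into amino acids. In Arabidopsis and in cereals many of these genes respond to the supply of nitrate itself, while ammonium transporters and urea transporters handle other forms of nitrogen.

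The root libraries of both groups held 14589653 to 16115382 counts at 100% and 15891352 to 16862820 in controls, with counts at 25836 to 26270 loci and at 25677 to 25894 loci. The tissue label was checked against markers of green tissue, chlorophyll a-b binding proteins and the small subunit of Rubisco. Their summed level was 3.74 to 6.79 CPM (counts scaled to the total of the library) in 100% roots and 3.52 to 4.63 CPM in control roots, against 43692 to 103287 CPM in the leaf libraries, and 16 of these 30 loci had no count in the 6 roots. None of the 3 that could be tested was called. The 3 loci described as Casparian strip membrane proteins, a defining protein of root endodermis, gave only 1.99 to 4.3 CPM in 100% roots and 1.2 to 2.43 CPM in control roots. They were higher in leaves, at 41.9 to 56.9 CPM at 100% and 2.61 to 5.22 CPM at 0%, so they gave no check of the root label. The wider list of 28 root markers was of little use as a check, since its members with changed levels were the nitrate uptake genes described below. Library profiles correlated at 0.955 to 0.963 among 100% roots, at 0.957 to 0.977 among control roots and at 0.904 to 0.944 between the groups (Pearson r across genes).

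Among the 21895 genes, 2240 (10.2%) differed between 100% and control roots at an adjusted p below 0.05 in edgeR's quasi-likelihood test. Of these, 1027 (4.69% of the genes tested) were higher and 1213 (5.54%) were lower at 100%, and the median log2 change over all genes was 0.00. The balance of the directions was not stable, with 1200 higher and 1060 lower when libraries were scaled by size alone, and 1099 higher and 987 lower without 100% root 2. The change exceeded 1 on the log2 scale in 622 of the genes called higher and fell below -1 in 713 of those called lower. The lowest value of one group lay above the highest of the other in 2225 of the 2240 genes, while over all genes tested the groups did not overlap in 18.9% with 100% roots higher and in 15% with 100% roots lower. At an unadjusted p below 0.05 there were 6166 genes. The count depended on single libraries. It was 1074 without 100% root 1, 2086 without 100% root 2 and 788 without 100% root 3. It was 1129 without control root 1, 571 without control root 2 and 909 without control root 3. With the 9 leaf libraries added to the fit, 501 genes were called, 478 of them among the 2240. Tested against a minimum log2 change of 1, 109 genes were called, and 89 of the 122 called genes named below were not. The adjusted p values given below for alternatives leave this stricter test aside. The labels do not say whether the 3 libraries of a group stem from different plants or pots, so these tests reflect the spread among the libraries, which may be technical.

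Genes were grouped by the descriptions in the count table into 44 lists. The lists were chosen with earlier results of these data known, so their shares of calls are not independent of those results. The lists in which more members than over all genes were called higher included nitrate uptake, nitrate reduction, ammonium assimilation, heat shock, secondary wall and potassium transport. Those with more members called lower included glutathione S-transferases, WRKY factors, peroxidases and pathogenesis-related proteins, and the clock list had many called in both directions. These shares are a description beside the 4.69% and 5.54% of all genes, and no test was made of any list. Gene names follow the protein match in the table, and where the name of the locus itself points elsewhere it is given too.

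**Figure D1:**
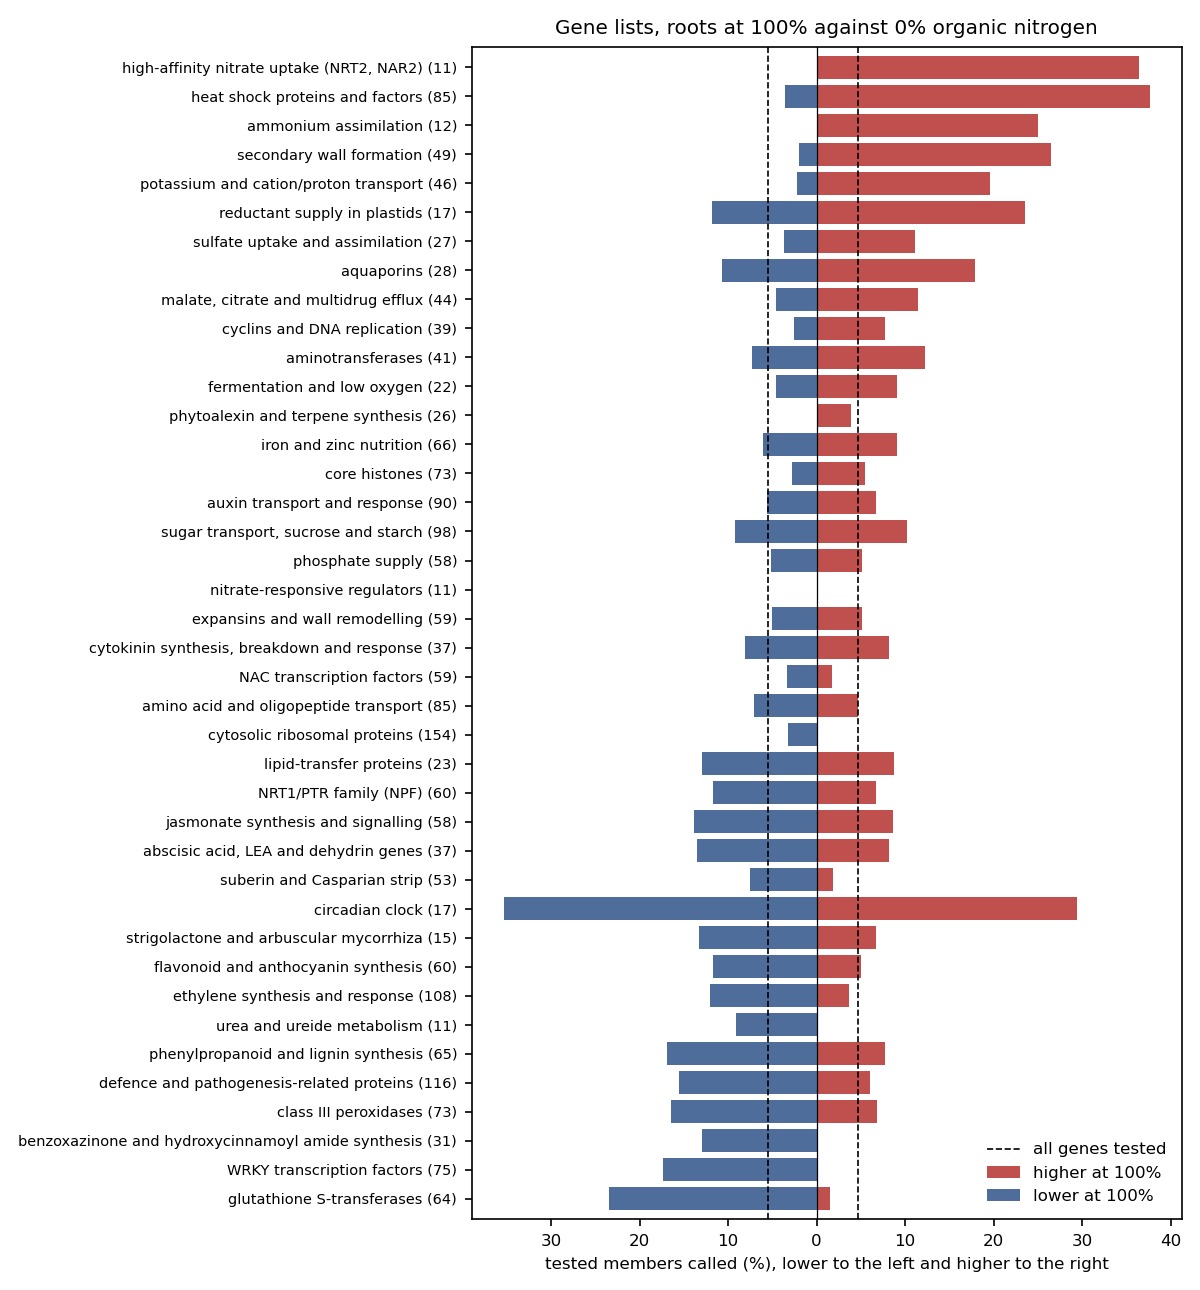
Share of the tested members of each gene list that was called higher (red, to the right) or lower (blue, to the left) in roots at 100% against 0% organic nitrogen, for lists with at least 10 members tested (number in brackets). Dashed lines mark the shares over all genes, 4.69% higher and 5.54% lower; heat shock reached 37.6% higher and glutathione S-transferases 23.4% lower.

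Several genes of nitrate uptake rose in 100% roots. In the high-affinity list 4 of 11 tested members of 12 loci were called higher and none lower, with a median log2 change of 0.78. The number called was 1 without control root 2, 2 without control root 3 and 3 or 4 without any other library. The largest change was that of a locus described as the transporter NRT2.4 (D1007_49225, scaffold SDOW01000759.1, 1375685 to 1378954). It had 87.4, 26.9 and 74 CPM in 100% roots, against 2.2, 2.19 and 2.42 CPM in control roots. All 3 libraries at 100% lay far above every control, and the log2 change was 4.74 ± 0.52 (SE, n = 3 each, adjusted p = 0.0016, at most 0.019 over the other alternatives). The 40% roots, with 1.92 to 5.9 CPM, did not share the rise, and the 100% roots exceeded them by 4.07 on the log2 scale (adjusted p = 0.0045).

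Genes of the partner protein of NRT2 were also called higher. NAR2.2 (D1007_44400, SDOW01000622.1, 1657295 to 1658121) had 432, 143 and 253 CPM in 100% roots, against 70.4, 71.1 and 61.6 CPM in control roots, a log2 change of 2.00 ± 0.37 (adjusted p = 0.012). NAR2.1 (D1007_31256) had 477, 149 and 266 CPM in 100% roots, against 87.1, 71.8 and 72 CPM in control roots, a log2 change of 1.92 ± 0.38 (adjusted p = 0.015). In both genes 100% root 1 was highest and 100% root 2 lowest, and still above every control. A locus described as NRT2.1 (D1007_62268) had 244, 56.5 and 81.5 CPM in 100% roots, against 31.2, 35.2 and 28.6 CPM in control roots, and only just passed (log2 change 1.99 ± 0.55, adjusted p = 0.05). The member with the most reads, another NAR2.2 copy on the same scaffold as the first (D1007_44398), averaged 660 ± 232 CPM in 100% roots and 472 ± 9.31 CPM in control roots (SD, n = 3 each) and did not pass (adjusted p = 0.41). The sources used here do not give how reads shared by such copies were treated. NAR2.1 and NRT2.1 were picked after their values were seen. Without control root 2 the adjusted p was 0.06 for NAR2.2 and 0.075 for NAR2.1, which also missed the threshold without control root 3 (0.057). The NRT2.1 call was lost in every fit without 1 library except that without 100% root 2 (adjusted p 0.073 to 0.15), and without 100% root 1 its log2 change was 1.04. It was also lost with RLE scaling factors (0.05) and with the leaf libraries in the fit (0.13).

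NPF6.3 (D1007_25456, SDOW01000262.1, 1234218 to 1240330), known in Arabidopsis as the dual-affinity nitrate transporter and sensor NRT1.1, had 142, 96 and 135 CPM in 100% roots, against 18.9, 22.1 and 17.3 CPM in control roots. Its log2 change of 2.63 ± 0.26 had the smallest adjusted p of all nitrogen genes (0.0011, at most 0.013 over the alternatives). The 40% roots had 23.5 to 44.9 CPM. The NPF family as a whole did not move one way. Of its 60 tested members, out of 115 loci, 4 were called higher and 7 lower, with a median log2 change of -0.31, and without control root 2 the counts were 1 and 2. NPF7.3 (D1007_00549), which in Arabidopsis loads nitrate into the xylem, averaged 66 ± 31.4 CPM in 100% roots and 23.9 ± 0.841 CPM in control roots (adjusted p = 0.049), and 40% roots reached 82.3 to 174 CPM. It was picked after its values were seen, and its call was lost without any single library other than 100% root 2 (adjusted p 0.11 to 0.16) and with the leaf libraries (0.31). Among the members called lower were 3 copies described as NPF8.3, a carrier of dipeptides and tripeptides in Arabidopsis. One of them (D1007_24918) averaged 15.9 ± 1.85 CPM in 100% roots and 32.7 ± 7.05 CPM in control roots, a log2 change of -1.08 ± 0.16 (adjusted p = 0.0054). The NPF8.3 copy with the most reads (D1007_01343), at 119 ± 34.3 CPM in 100% roots and 156 ± 20.8 CPM in control roots, did not pass (adjusted p = 0.28). NPF5.6 (D1007_33979) was nearly without reads in 100% roots, where 1 read was counted in all, and had 1.6 to 2.14 CPM in each control root. That read lay in 100% root 3. Its ratio of control to 100% roots was 83, with a 95% counting interval of 14.5 to 3314 (adjusted p = 0.0057).

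A locus of each reductase of the nitrate pathway was called higher in 100% roots. Of 35 loci in this list 3 were tested, and 2 (66.7%) were called higher and none lower, against 4.69% and 5.54% over all genes. The remaining tested member was not called. The number called higher was 1 without 100% root 1, 100% root 3, control root 1 or control root 2. It was 3 without 100% root 2 and 2 without control root 3. Nitrate reductase (D1007_08787, SDOW01000066.1, 7720677 to 7724047) had 784, 609 and 609 CPM in 100% roots, against 181, 134 and 174 CPM in control roots. The groups were far apart, and the log2 change was 1.99 ± 0.24 (adjusted p = 0.0026, 0.069 with the leaf libraries in the fit). Nitrite reductase (D1007_08673, same scaffold, 3678579 to 3681627), picked after its values were seen, had 971, 240 and 699 CPM in 100% roots, against 91.2, 119 and 179 CPM in control roots. Its log2 change of 2.23 ± 0.51 passed (adjusted p = 0.027), with 100% root 2 not far above the highest control. In 40% roots nitrite reductase had 30.7 to 68.1 CPM, below every control root, and 100% roots exceeded them by 3.73 on the log2 scale (adjusted p = 0.0091). The call against the controls was lost without 100% root 1 (0.079), 100% root 3 (0.075), control root 1 (0.087) or control root 2 (0.11).

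Genes of the plastid supply of reductant were called in both directions. Of 17 tested, 4 were called higher and 2 lower, and 1 was higher without any single library other than 100% root 2. The root isozyme of ferredoxin-NADP reductase (D1007_28258) had 655, 246 and 488 CPM in 100% roots, against 93.2, 120 and 127 CPM in control roots, a log2 change of 1.98 ± 0.34 (adjusted p = 0.0092, at most 0.049). Plastid glucose-6-phosphate dehydrogenase (D1007_17542) averaged 204 ± 104 CPM in 100% roots and 67.3 ± 13.9 CPM in control roots (adjusted p = 0.03). The next enzyme of the pentose phosphate pathway, 6-phosphogluconate dehydrogenase (D1007_53899), averaged 368 ± 223 CPM in 100% roots and 107 ± 32.1 CPM in control roots (adjusted p = 0.041). Ferredoxin C 2 (D1007_02612) went the other way, with 1.84 ± 0.493 CPM in 100% roots and 7.08 ± 1.06 CPM in control roots (adjusted p = 0.0035). So did the more abundant ferredoxin-3, which averaged 302 CPM in 100% roots and 453 CPM in control roots (log2 change -0.63, adjusted p = 0.039). The calls of both dehydrogenases, picked after their values were seen, were lost without any single library other than 100% root 2 (adjusted p 0.056 to 0.15), and that of 6-phosphogluconate dehydrogenase with the 6 libraries alone (0.055).

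Of 12 tested genes of ammonium assimilation, 3 were called higher and none lower, but 0 were higher without any single library other than 100% root 2. The plastid glutamine synthetase (D1007_32310) had 257, 81.8 and 112 CPM in 100% roots, against 59, 46.4 and 28.4 CPM in control roots (log2 change 1.75 ± 0.42, adjusted p = 0.032). The cytosolic isozyme 1-2 (D1007_33459) had 1491, 532 and 656 CPM in 100% roots, against 398, 301 and 207 CPM in control roots (1.56 ± 0.42, adjusted p = 0.045). NADH glutamate synthase (D1007_59671) had 1050, 225 and 515 CPM in 100% roots, against 81.7, 116 and 190 CPM in control roots (2.15 ± 0.57, adjusted p = 0.044). In these 3 genes, picked after their values were seen, 100% root 1 stood well above the other two libraries of its group, and each call was lost without any single library other than 100% root 2 (adjusted p 0.051 to 0.15). Without 100% root 1 the log2 changes were 1.06, 0.92 and 1.40 in that order. With the leaf libraries in the fit, the cytosolic synthetase (0.18) and glutamate synthase (0.073) were not called. The glutamine synthetase with the most reads (D1007_38808) averaged 2249 ± 366 CPM in 100% roots and 1687 ± 107 CPM in control roots and did not pass (adjusted p = 0.32).

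Of the genes called higher in the lists of nitrate uptake, ammonium transport, nitrate reduction, ammonium assimilation and reductant supply, 14 in all, 100% root 1 was the highest of its group in 14 and 100% root 2 the lowest in 11. Over all 1027 genes called higher, the shares were 36% and 56.2%. The size of the rise in these genes thus differed among the 3 libraries at 100%. The order was not counted in the other nitrogen lists. NPF6.3 shared it (142, 96 and 135 CPM in 100% roots 1, 2 and 3), while the aminotransferase homolog D1007_53835 did not (472, 808 and 641 CPM).

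**Figure D2:**
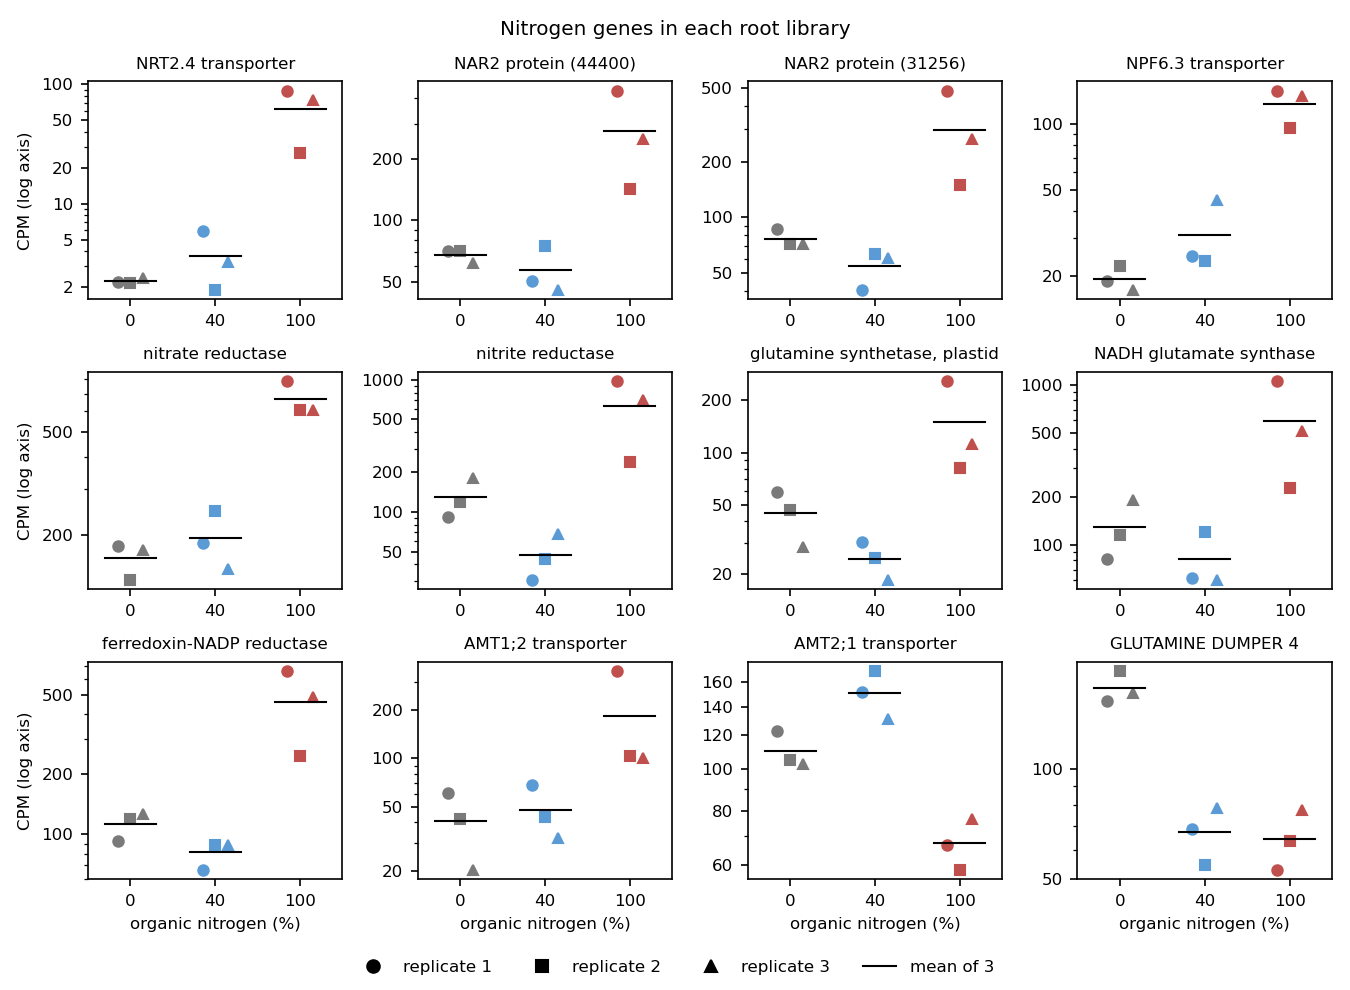
CPM of 12 nitrogen genes in each root library (log axis) by the share of organic nitrogen, 0, 40 and 100%; symbols mark the replicate and bars the mean of 3; the NAR2 titles give the last digits of D1007_44400 (NAR2.2) and D1007_31256 (NAR2.1). In the 10 genes up to AMT1;2 the 3 libraries at 100% lie above every control, while AMT2;1 and GLUTAMINE DUMPER 4 lie below them; 40% roots lie near the controls or below them in the genes of nitrate uptake and assimilation.

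Transporters of ammonium went both ways, with 1 of 6 tested members called higher and 1 lower. AMT1;2 (D1007_05842), of the group that takes up ammonium in rice and Arabidopsis roots, had 347, 104 and 100 CPM in 100% roots, against 60.9, 42 and 20.4 CPM in control roots. The groups did not overlap, and its log2 change of 2.17 ± 0.55 passed (adjusted p = 0.038). AMT2;1 (D1007_10500), picked after its values were seen, had 66.7, 58.4 and 76.6 CPM in 100% roots, against 123, 105 and 103 CPM in control roots. It fell, with a log2 change of -0.76 ± 0.15 (adjusted p = 0.016). The AMT1;2 change was 1.27 without 100% root 1 (adjusted p = 0.097), and its call was also lost without control root 1 (0.063), 2 (0.13) or 3 (0.11). The AMT2;1 call was lost without control root 2 or control root 3 (0.051 each). With the leaf libraries in the fit the adjusted p was 0.13 for AMT1;2 and 0.41 for AMT2;1.

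Genes of amino acid and peptide transport were called near the background. Of 85 tested members 4 (4.71%) were called higher and 6 (7.06%) lower, against 4.69% and 5.54% over all genes. GLUTAMINE DUMPER 4 (D1007_36771), of a family that promotes amino acid export in Arabidopsis, had 53.1, 63.5 and 77.1 CPM in 100% roots, against 154, 185 and 162 CPM in control roots. This fall (log2 change -1.42 ± 0.17, adjusted p = 0.0024, 0.11 with the leaf libraries) was already present in 40% roots, at 54.7 to 78.5 CPM. Amino acid permease 6 (D1007_35486), picked after its values were seen, had 10.8, 4.46 and 11.2 CPM in 100% roots, against 26.7, 79.4 and 137 CPM in control roots. Its log2 change was -3.29 ± 0.63 (adjusted p = 0.014) and -2.58 without control root 3. AVT6A (D1007_36158), of a family of vacuolar amino acid transporters, averaged 79.2 ± 26 CPM in 100% roots and 27 ± 3.13 CPM in control roots (adjusted p = 0.012, 0.056 without control root 2 and 0.12 with the leaf libraries). The transporter with the most reads, vacuolar CAT2 (D1007_39707), averaged 296 ± 113 CPM in 100% roots and 192 ± 8.64 CPM in control roots and did not pass (adjusted p = 0.21).

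Aminotransferases, which pass amino groups between carbon skeletons, had 5 of 41 tested members called higher and 3 lower. The one with the most reads, an alanine-glyoxylate aminotransferase homolog of mitochondria (D1007_53835), had 472, 808 and 641 CPM in 100% roots, against 228, 259 and 239 CPM in control roots (log2 change 1.35 ± 0.26, adjusted p = 0.014). Mitochondrial aspartate aminotransferase (D1007_27805) averaged 14.6 ± 3.75 CPM in 100% roots and 4.63 ± 0.613 CPM in control roots (adjusted p = 0.0097). The aromatic aminotransferase ISS1 (D1007_35765) averaged 52.9 ± 1.72 CPM in 100% roots and 84.2 ± 2.08 CPM in control roots (adjusted p = 0.013). The locus annotated DapC (D1007_03242) averaged 2.44 ± 0.853 CPM in 100% roots and 8.19 ± 1.75 CPM in control roots (adjusted p = 0.013). The calls of the first, ISS1 and DapC were lost without control root 2 (adjusted p 0.056 to 0.06), that of the first also without control root 1 (0.052) and that of ISS1 also without 100% root 3 (0.059). With the leaf libraries in the fit, the adjusted p was 0.18, 0.2 and 0.057 for the first 3 genes in the order given.

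Genes of urea and ureide handling were called near the background. Of 11 tested genes 1 (9.09%) was called, lower, against 10.2% called in either direction over all genes. It was urease accessory protein G (D1007_32185), which inserts nickel into urease. It had 27.1, 32.4 and 24.7 CPM in 100% roots, against 59.2, 54.1 and 42.2 CPM in control roots. The log2 change was -0.92 ± 0.17 (adjusted p = 0.011, 0.051 without control root 2). Allantoate deiminase (D1007_57662), which releases ammonium from ureides and had the most reads of the list, averaged 612 ± 145 CPM in 100% roots and 320 ± 110 CPM in control roots and missed the threshold (adjusted p = 0.052), which it passed without control root 1 (0.043). None of the 11 tested nitrate-responsive regulators was called in edgeR's test. The one with the most reads, the NIN-like protein NLP1 (D1007_15177), averaged 175 ± 39.8 CPM in 100% roots and 126 ± 41.9 CPM in control roots, and the groups overlapped (adjusted p = 0.22).

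A hemoglobin and a PEP carboxylase were also higher, both picked after their values were seen. Of 2 tested hemoglobin loci 1 was called higher and none lower. A link of either gene to nitrate use in these roots was not tested. A non-symbiotic hemoglobin (D1007_04718), of a class that scavenges nitric oxide formed during nitrate reduction, had 130, 32.6 and 107 CPM in 100% roots, against 2.52, 4.21 and 10.1 CPM in control roots. The groups were far apart, and the log2 change was 3.92 ± 0.78 (adjusted p = 0.016). In 40% roots it had 0.0655 to 2.39 CPM. PEP carboxylase 2 (D1007_21431), which makes carbon skeletons for amino acids, had 1398, 472 and 1049 CPM in 100% roots, against 206, 292 and 368 CPM in control roots (log2 change 1.69 ± 0.39, adjusted p = 0.028). The hemoglobin call was lost without 100% root 3 (0.05), control root 1 (0.055) or control root 2 (0.084) and with the leaf libraries (0.069), and its log2 change was 4.75 without control root 3. The PEP carboxylase call was lost without 100% root 1, 100% root 3, control root 1 or control root 2 (adjusted p 0.078 to 0.11) and with the leaf libraries (0.081).

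For transport of potassium and other cations 9 of 46 tested members were called higher and 1 lower. The largest rise of any named gene was that of a locus described as the cation/proton antiporter CHX20 (D1007_11312, SDOW01000091.1, 1304417 to 1309433), whose own name is antiporter 17. It had 65.8, 163 and 25.8 CPM in 100% roots, against 0.44, 0.297 and 0.121 CPM in control roots, with 0.892 to 4.59 CPM in 40% roots. Its log2 change was 8.15 ± 0.93 (adjusted p = 0.002, at most 0.02), and 7.29 without 100% root 2. HKT8 (D1007_49775), which in rice retrieves sodium from the xylem, had 281, 592 and 354 CPM in 100% roots, against 102, 68.3 and 21.4 CPM in control roots (2.66 ± 0.54, adjusted p = 0.017, 0.075 without control root 2, 0.11 with the leaf libraries). KOR1 (D1007_09757), a potassium channel whose Arabidopsis relative releases potassium into the xylem, averaged 80.4 ± 18.5 CPM in 100% roots and 26.9 ± 6.92 CPM in control roots (adjusted p = 0.004). The sodium/proton exchanger NHX2 (D1007_11451) averaged 27.1 ± 4.16 CPM in 100% roots and 9.72 ± 1.68 CPM in control roots (adjusted p = 0.0022). HKT8 and KOR1 were picked after their values were seen. The count of higher members was 5 without control root 2.

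For phosphate, 3 of 58 tested genes were called higher and 3 lower, near the background. PHO1-2 (D1007_34928), which in rice passes phosphate to the xylem, had 1706, 1717 and 2236 CPM in 100% roots, against 850, 882 and 956 CPM in control roots, a log2 change of 1.01 ± 0.18 (adjusted p = 0.012, 0.058 without control root 2, 0.61 with the leaf libraries). The uptake transporter PHT1-2 (D1007_30153), picked after its values were seen, had 46.2, 57.5 and 29 CPM in 100% roots, against 143, 138 and 114 CPM in control roots, and 153 to 456 CPM in 40% roots. Its log2 change was -1.61 ± 0.38 (adjusted p = 0.029, and 0.071 to 0.097 without any single library other than 100% root 2, 0.067 with the leaf libraries). A locus described as an inactive purple acid phosphatase (D1007_44145) averaged 20.3 ± 7.92 CPM in 100% roots and 97.1 ± 26.7 CPM in control roots (adjusted p = 0.0049).

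For sulfate, 3 of 27 tested genes were called higher and 1 lower. The sulfate transporter 3.5 locus (D1007_31369) had 370, 218 and 312 CPM in 100% roots, against 44.6, 57.8 and 87.3 CPM in control roots (log2 change 2.18 ± 0.31, adjusted p = 0.0045). Sulfate transporter 3.4 (D1007_52523) averaged 383 ± 75.1 CPM in 100% roots and 180 ± 26.6 CPM in control roots (adjusted p = 0.033). Its call was lost without 100% root 2 (0.069), 100% root 3 (0.091), control root 1 (0.1) or control root 2 (0.13), and with the leaf libraries (0.56). Of 66 tested genes of iron and zinc nutrition 6 were called higher and 4 lower. Metal tolerance protein 3 (D1007_28105), a locus named as a manganese carrier, averaged 18.1 ± 1.06 CPM in 100% roots and 46.2 ± 3.48 CPM in control roots (adjusted p = 0.0014, 0.087 with the leaf libraries). The metal-nicotianamine transporter YSL6 (D1007_42769) averaged 7.09 ± 3.15 CPM in 100% roots and 0.488 ± 0.277 CPM in control roots (log2 change 3.79 ± 0.52, adjusted p = 0.004, 0.12 with the leaf libraries), and its log2 change was 4.39 without control root 3.

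Water channels split, with 5 of 28 tested members called higher and 3 lower. The tonoplast aquaporin TIP4-2 (D1007_44128) had 47.9, 48.4 and 51.9 CPM in 100% roots, against 269, 329 and 417 CPM in control roots, while 40% roots had 175 to 467 CPM. Its log2 change was -2.84 ± 0.34 (adjusted p = 0.0025, at most 0.016). The plasma membrane aquaporin PIP1-1 (D1007_52232) averaged 151 ± 30 CPM in 100% roots and 60 ± 10.3 CPM in control roots (adjusted p = 0.0026, 0.061 with the leaf libraries), and 40% roots, at 115 to 133 CPM, lay above the controls too.

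Many heat shock genes rose in 100% roots. Heat shock chaperones hold or refold damaged proteins, and their genes are switched on by heat stress factors under heat and other stresses. Of 85 tested members of 191 loci, 32 (37.6%) were called higher and 3 lower, with a median log2 change of 0.63. Their summed level was 12636, 11932 and 11969 CPM in 100% roots, against 7754, 8559 and 7630 CPM in control roots. The HSP70 locus D1007_49259 (SDOW01000762.1, 56433 to 59569) had 1435, 1312 and 1325 CPM in 100% roots, against 89.2, 88.4 and 78.5 CPM in control roots. The libraries of each group lay close together, and its log2 change of 3.95 ± 0.20 had an adjusted p of 2.6e-05, at most 0.001 over the alternatives. The 40% roots had 138, 179 and 216 CPM, and 100% roots exceeded them by 2.91 on the log2 scale (adjusted p = 0.00068).

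Other chaperones behaved alike. ClpB1 (D1007_04738), the disaggregase known as HSP101, had 101, 71.1 and 82.9 CPM in 100% roots, against 4.03, 2.73 and 2.84 CPM in control roots (log2 change 4.69 ± 0.34, adjusted p = 0.00017). HSP82 (D1007_33559) had 143, 118 and 86.9 CPM in 100% roots, against 14.5, 13.3 and 6.82 CPM in control roots (3.31 ± 0.38, adjusted p = 0.0021). A small heat shock protein of class I (D1007_18370) had 8.23, 17.6 and 4.03 CPM in 100% roots, against 0.0629, 0.119 and 0.0604 CPM in control roots (6.77 ± 1.07, adjusted p = 0.0068), and its log2 change was 6.09 without 100% root 2. These rises were not limited to one compartment, since ClpB and HSP70 forms described as chloroplastic or mitochondrial were also called higher. Among the transcription factors, HSFB-2b (D1007_40332) had 40.4, 38.8 and 37.6 CPM in 100% roots, against 5.6, 6.05 and 5.31 CPM in control roots (2.74 ± 0.16, adjusted p = 7.1e-05), with 12 to 15.9 CPM in 40% roots.

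The 3 members called lower were the factors HSFA-4d and HSFC-1b and a class V small heat shock protein. The constitutive HSC70 with the most reads among those called (D1007_28751) averaged 2449 ± 166 CPM in 100% roots and 1377 ± 81.3 CPM in control roots (adjusted p = 0.022, lost without 100% root 1, control root 1 or control root 2, 0.069 to 0.087, and with the leaf libraries, 0.34). Galactinol synthase 2 (D1007_51880), which starts the raffinose sugars and is a target of heat stress factors in Arabidopsis, averaged 56.3 ± 1.03 CPM in 100% roots and 13.4 ± 1.2 CPM in control roots (log2 change 2.02 ± 0.14, adjusted p = 0.00014, 0.074 with the leaf libraries). HSP82, HSC70 and galactinol synthase were picked after their values were seen. The count of higher members of the list was 20 without control root 2 and 25 to 30 without any other single library.

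**Figure D3:**
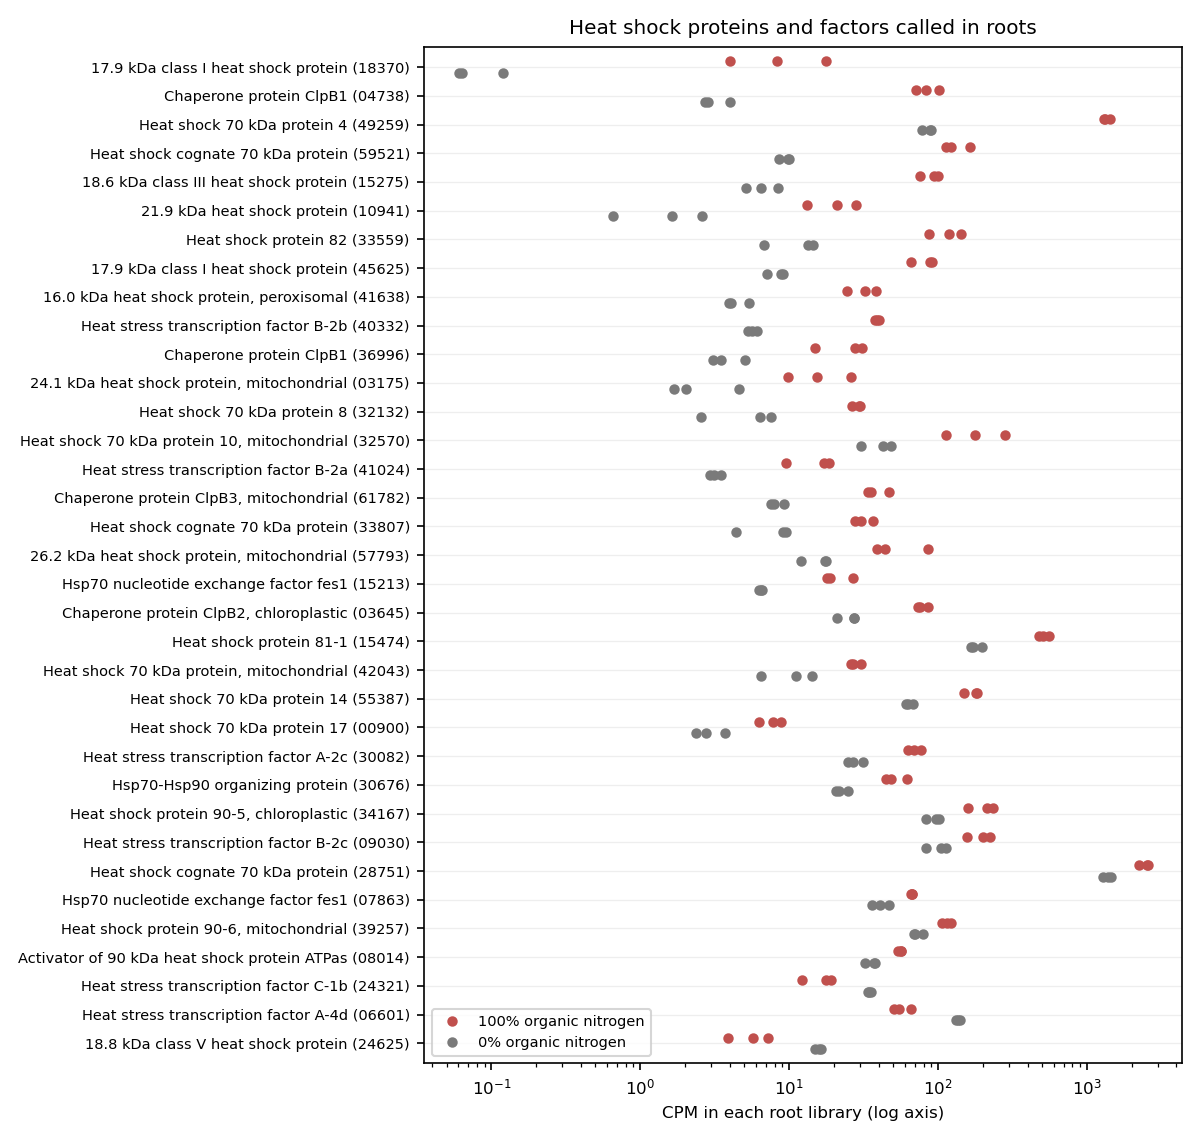
CPM in each root library (log axis) of the 35 called genes of the heat shock list, with 100% organic nitrogen in red above the control in grey and the locus number in brackets. The 32 genes called higher run from the top, where the groups lie farthest apart, and the 3 called lower stand at the bottom.

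Genes of the circadian clock moved in both directions. Plant clocks run on morning genes such as LHY and on evening genes such as the PRR regulator TOC1, GIGANTEA and LUX (here PCL1), whose levels swing over the day. Of 17 tested members 5 were called higher and 6 lower. LNK1 (D1007_24309), a coactivator of the morning, had 172, 241 and 218 CPM in 100% roots, against 47, 47.7 and 33.3 CPM in control roots (log2 change 2.26 ± 0.17, adjusted p = 0.0002). REVEILLE 2 (D1007_41973) had 16.7, 19.1 and 19.9 CPM in 100% roots, against 1.32, 1.01 and 1.09 CPM in control roots (3.97 ± 0.50, adjusted p = 0.0029). LHY (D1007_00729, itself named for its close relative CCA1), which the words of the list had missed, had 454, 610 and 536 CPM in 100% roots, against 87, 90.5 and 78 CPM in control roots (2.60 ± 0.19, adjusted p = 0.00017).

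PCL1 (D1007_45039, SDOW01000638.1, 93678 to 94502) was nearly silent in 100% roots, with 0.317, 0.137 and 1.12 CPM, against 18.9, 20.2 and 28.9 CPM in control roots. Its log2 change was -5.46 ± 0.65 (adjusted p = 0.0024), and -6.60 without 100% root 3. The regulator PRR1 (D1007_42665), the rice name of TOC1, averaged 53.3 ± 10.8 CPM in 100% roots and 133 ± 13 CPM in control roots (adjusted p = 0.0028, 0.081 with the leaf libraries). GIGANTEA (D1007_33900) was higher, at 761 ± 92.8 CPM in 100% roots and 358 ± 54 CPM in control roots (adjusted p = 0.0039, 0.061 with the leaf libraries). The histone demethylase JMJ30 (D1007_26028), a clock-linked gene of the evening in Arabidopsis, had 0.0633, 0.137 and 0.186 CPM in 100% roots, against 5.66, 4.57 and 5.01 CPM in control roots (-5.26 ± 0.48, adjusted p = 0.00059). Cyclic dof factor 2 (D1007_44424), a morning gene that the clock controls, averaged 38.5 ± 2.73 CPM in 100% roots and 5.55 ± 0.893 CPM in control roots (2.75 ± 0.22, adjusted p = 0.00027). Other called members of the list went against their relatives. REVEILLE 1 was lower (log2 change -2.96, adjusted p = 0.028). Of the PRR regulators, PRR73 and APRR5 were higher (0.82 and 2.62, adjusted p = 0.02 and 0.024). PRR95 was lower (-0.88, adjusted p = 0.012). The groups did not overlap in any of these genes. The list held 3 higher members without 100% root 1, 100% root 3, control root 2 or control root 3, and 4 lower members without control root 2. REVEILLE 2, LHY, PRR1, GIGANTEA and cyclic dof factor 2 were picked after their values were seen. Since the hour of harvest is not given, a change of the clock by the fertilizer and a harvest at another hour cannot be told apart, and this holds for every gene that follows the time of day.

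**Figure D4:**
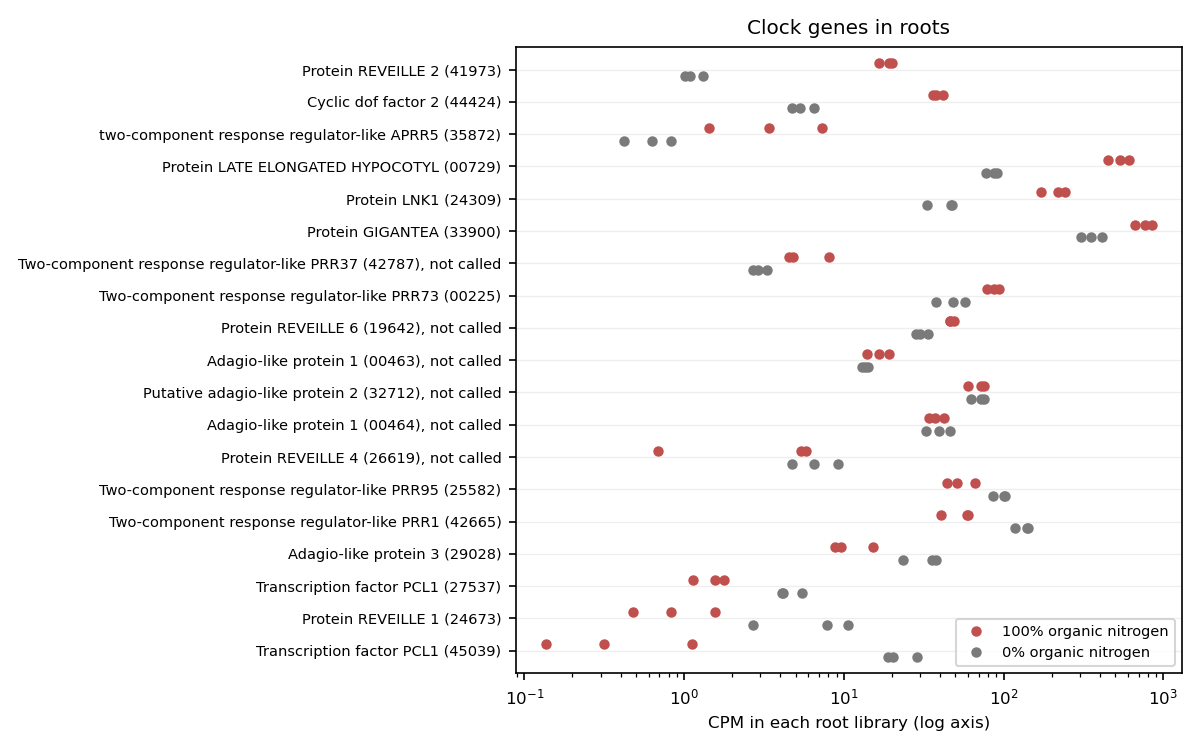
CPM in each root library (log axis) of the 17 tested clock genes and of LHY and cyclic dof factor 2, with 100% organic nitrogen in red above the control in grey and the locus number in brackets. LHY, LNK1 and REVEILLE 2 lie to the right of the controls and both PCL1 loci and REVEILLE 1 to the left, with no overlap.

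Some genes of the secondary wall, the lignified layer of xylem and fibres, rose in 100% roots. Of 49 tested members 13 were called higher and 1 lower, with a median log2 change of 0.98. The cellulose synthases CESA4, CESA7 and CESA9, which make secondary wall cellulose in rice, rose together. CESA9 (D1007_24041) had 32.9, 27.3 and 23.6 CPM in 100% roots, against 4.85, 5.46 and 6.94 CPM in control roots (log2 change 2.23 ± 0.43, adjusted p = 0.014). CESA4 (D1007_03347) had 17.4, 13.5 and 16.2 CPM in 100% roots, against 1.57, 3.56 and 4.95 CPM in control roots (2.15 ± 0.46, adjusted p = 0.022). CESA7 (D1007_35265) had 21.5, 10.1 and 19.5 CPM in 100% roots, against 1.64, 2.67 and 5.49 CPM in control roots (2.30 ± 0.52, adjusted p = 0.025). All 3 were higher still in 40% roots, at 36.8 to 109 CPM for CESA9, 27.2 to 69.1 CPM for CESA4 and 24.4 to 55.9 CPM for CESA7, so their order does not follow the rate.

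COBRA-like protein 3 (D1007_34931), itself named a phytochelatin synthetase, averaged 29.8 ± 3.18 CPM in 100% roots and 13.8 ± 3.09 CPM in control roots (adjusted p = 0.0044). The one member called lower, putative laccase-9 (D1007_56949), had 0, 0 and 0.931 CPM in 100% roots, against 36.5, 29.7 and 36.5 CPM in control roots (-6.77 ± 1.33, adjusted p = 0.016). Its log2 change was -12.05 without 100% root 3, the only library of its group with reads, and it missed the threshold without 100% root 1 (0.054), without control root 2 (0.052) and with the leaf libraries (0.056). CESA9 was not called without control root 1 (0.055) or control root 2 (0.07). CESA4 and CESA7, picked after their values were seen, were not called without 100% root 1, 100% root 3, control root 1 or control root 2 (adjusted p 0.053 to 0.11), and CESA7 had a log2 change of 2.99 without control root 3. None of the 3 passed with the leaf libraries in the fit (0.2 to 0.32). The count of higher members of the list was 5 without 100% root 1, 3 without 100% root 3, 3 without control root 1 and 1 without control root 2.

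For phenylpropanoid and lignin synthesis 5 of 65 tested members were called higher and 11 lower, with a median log2 change of -0.40. This imbalance rested on single libraries, with 3 higher and 2 lower without 100% root 3, and 2 higher and 2 lower without control root 2. Of the loci described as cinnamoyl-CoA reductase 1, an enzyme of lignin synthesis, but named dihydroflavonol reductases, D1007_32578 averaged 11.6 ± 1.12 CPM in 100% roots and 3.06 ± 0.931 CPM in control roots (adjusted p = 0.0087). D1007_56767 averaged 33.4 ± 4.09 CPM in 100% roots and 102 ± 20.3 CPM in control roots (adjusted p = 0.011). For flavonoids 3 of 60 tested members were called higher and 7 lower. A flavone O-methyltransferase (D1007_22362) had 0.38, 0.96 and 0.434 CPM in 100% roots, against 6.04, 26.9 and 56 CPM in control roots (log2 change -5.75 ± 1.02, adjusted p = 0.011). It was not called without 100% root 3 (0.05) or in limma's voom fit (0.092), and the change was -4.80 without control root 3. Leucoanthocyanidin dioxygenase (D1007_14502), of anthocyanin and tannin synthesis, averaged 15.7 ± 1.6 CPM in 100% roots and 31.6 ± 2.04 CPM in control roots (adjusted p = 0.0048). An anthocyanidin glucosyltransferase (D1007_25893) averaged 86.2 ± 7.18 CPM in 100% roots and 197 ± 19.4 CPM in control roots (adjusted p = 0.0031).

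Class III peroxidases, secreted enzymes that cross-link walls and handle peroxide, had 5 of 73 tested members called higher and 12 (16.4%) lower. Peroxidase 2 (D1007_55047) had 0.506, 0.343 and 0.124 CPM in 100% roots, against 9.25, 13.2 and 13.8 CPM in control roots (log2 change -5.24 ± 0.54, adjusted p = 0.0013), and 40% roots, at 0.463 to 1.51 CPM, were low too. Another peroxidase 2 locus (D1007_12725, SDOW01000105.1, 2089462 to 2091334), picked after its values were seen, had 56.7, 46.7 and 164 CPM in 100% roots, against 689, 812 and 947 CPM in control roots (-3.28 ± 0.50, adjusted p = 0.0058, and -4.01 without 100% root 3). Peroxidase 67 (D1007_55013) averaged 0.222 ± 0.225 CPM in 100% roots and 5.51 ± 3 CPM in control roots (adjusted p = 0.0057), with log2 changes of -5.82 without 100% root 2 and -4.10 without control root 3, against -4.69. Peroxidase 47 (D1007_04568) rose, with 542, 586 and 754 CPM in 100% roots, against 135, 113 and 73.3 CPM in control roots (2.52 ± 0.29, adjusted p = 0.0021, 0.17 with the leaf libraries). The count of higher members was 2 without 100% root 3, control root 1 or control root 2. The count of lower members was 7 without control root 2 and 8 to 10 without any other single library.

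Glutathione S-transferases conjugate toxic compounds, and many WRKY factors act in defence. Of 64 tested transferases 1 was called higher and 15 (23.4%) lower, and their summed level was 2532, 2584 and 2618 CPM in 100% roots, against 3382, 3804 and 4220 CPM in control roots. GSTU17 (D1007_33860) had 21.4, 44.9 and 36.5 CPM in 100% roots, against 118, 170 and 239 CPM in control roots (log2 change -2.44 ± 0.34, adjusted p = 0.0042), and 40% roots had 37.3 to 50.7 CPM. Glutathione S-transferase 3 (D1007_47283) averaged 403 ± 72.8 CPM in 100% roots and 773 ± 75.5 CPM in control roots (adjusted p = 0.0079). Of 75 tested WRKY genes none was called higher and 13 (17.3%) lower. WRKY1 (D1007_35544) had 2.91, 4.04 and 2.48 CPM in 100% roots, against 15, 15.2 and 23.9 CPM in control roots (-2.58 ± 0.38, adjusted p = 0.0054). WRKY51 (D1007_00267) averaged 1.19 ± 0.377 CPM in 100% roots and 7.71 ± 0.861 CPM in control roots (adjusted p = 0.0056, 0.13 with the leaf libraries). WRKY19 (D1007_25648), picked after its values were seen, had 249, 261 and 183 CPM in 100% roots, against 516, 509 and 561 CPM in control roots (-1.24 ± 0.19, adjusted p = 0.0056, 0.5 with the leaf libraries). For transferases 4, 7 and 6 were lower without 100% roots 1, 2 and 3, and 9, 5 and 5 without control roots 1, 2 and 3. For WRKY genes these counts were 8, 13 and 5 without 100% roots 1, 2 and 3, and 6, 5 and 5 without control roots 1, 2 and 3.

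Pathogenesis-related and other defence proteins had 7 of 116 tested members called higher and 18 (15.5%) lower. Thaumatin-like protein 1 (D1007_19504), of the PR5 family, had 5.63, 1.37 and 1.24 CPM in 100% roots, against 37.4, 35.8 and 60.2 CPM in control roots (log2 change -4.05 ± 0.60, adjusted p = 0.0054, and -5.18 without 100% root 1). The PR1 protein PRB1-2 (D1007_09777), picked after its values were seen, had 96.2, 108 and 136 CPM in 100% roots, against 372, 349 and 241 CPM in control roots (adjusted p = 0.018). It was not called without 100% root 1 (0.063), control root 1 (0.054) or control root 2 (0.07), nor with the leaf libraries (0.064). The chitinase CLP locus (D1007_58859), itself named a basic globulin, rose instead, with 11.9, 7.68 and 14.2 CPM in 100% roots, against 0.189, 0.237 and 0.664 CPM in control roots (4.85 ± 0.89, adjusted p = 0.012). It was not called without control root 2 (0.064) or with the leaf libraries (0.059), and its change was 5.68 without control root 3. A glucan endo-1,3-beta-glucosidase (D1007_29284) averaged 205 ± 24.6 CPM in 100% roots and 100 ± 7.77 CPM in control roots (adjusted p = 0.0057, 0.42 with the leaf libraries). Most other called loci of this description were lower, with log2 changes of -1.95 to -1.29, while a low-count locus was higher (1.65). The count of lower members was 7, 13 and 5 without 100% roots 1, 2 and 3 and 8, 5 and 8 without control roots 1, 2 and 3.

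The lipid-transfer protein DIR1 (D1007_29784, SDOW01000325.1, 2312002 to 2312313), which carries a systemic defence signal in Arabidopsis, had 548, 1134 and 691 CPM in 100% roots, against 2281, 4075 and 5098 CPM in control roots. The groups were far apart (log2 change -2.35 ± 0.39, adjusted p = 0.009, 0.25 with the leaf libraries), and 40% roots, at 510 to 941 CPM, were as low. Of 23 tested lipid-transfer proteins 2 were called higher and 3 lower. Glycolipid transfer protein 3 (D1007_07402) averaged 27 ± 1.55 CPM in 100% roots and 44.9 ± 6.47 CPM in control roots (adjusted p = 0.0085, 0.11 with the leaf libraries). For benzoxazinones, the defence compounds of grasses, and related amides, 4 of 31 tested members were called lower and none higher, but 0 were lower without 100% root 1, control root 2 or control root 3. Indole-2-monooxygenase (D1007_42617), an early step of that pathway, averaged 142 ± 38.1 CPM in 100% roots and 362 ± 73.3 CPM in control roots (adjusted p = 0.035, a call that several fits lost). Tryptamine benzoyltransferase 1 (D1007_02821) had 2 reads in all in 100% roots, both in 100% root 3, and 0.566 to 1.45 CPM in control roots, a ratio of control to 100% roots of 23.6 with a 95% counting interval of 6.19 to 200 (adjusted p = 0.02). Both calls were lost without 100% root 1 (0.11 and 0.066), 100% root 2 (0.08 and 0.051), control root 2 (0.11 and 0.073) or control root 3 (0.11 and 0.072) and with the leaf libraries (0.32 and 0.078), and that of indole-2-monooxygenase also without 100% root 3 (0.071).

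The hormone lists differed in their shares of calls, to be read beside 4.69% higher and 5.54% lower over all genes. For ethylene 4 of 108 tested members (3.7%) were called higher and 13 (12%) lower. The median log2 change of this list was -0.34, with 33 members positive and 75 negative. Without 100% root 3 the count of lower members was 4, without control root 2 it was 5 with 1 higher, and without 100% root 1 it was 8. Among the lower ones was the factor ERF020 (D1007_13819), with 1.39, 2.06 and 0.869 CPM in 100% roots, against 25.5, 14.7 and 8.33 CPM in control roots (log2 change -3.50 ± 0.51, adjusted p = 0.0052, 0.061 with the leaf libraries). SMOS1 (D1007_09559), a regulator of organ size in rice, averaged 4.31 ± 1.23 CPM in 100% roots and 0.813 ± 0.338 CPM in control roots (adjusted p = 0.0073, 0.074 with the leaf libraries). For auxin 6 of 90 (6.67%) were called higher and 5 (5.56%) lower, near the background. The carriers PIN5b (D1007_59144), at 25.4 ± 4.94 CPM in 100% roots and 4.33 ± 1.03 CPM in control roots (adjusted p = 0.0011, 0.13 with the leaf libraries), and PIN5a (D1007_24016), at 8.18 ± 3.11 and 0.306 ± 0.302 CPM in the same order (adjusted p = 0.01), were among the higher ones. The log2 change of PIN5a was 4.64, and it was 4.04 without control root 2 and 5.68 without control root 3. For cytokinin 3 of 37 were called higher and 3 lower (8.11% each). Cytokinin hydroxylase (D1007_37739), which makes trans-zeatin, fell to 1.14, 1.23 and 1.74 CPM in 100% roots, against 13.6, 8.95 and 6.16 CPM in control roots (-2.83 ± 0.39, adjusted p = 0.0042, at most 0.023). Cytokinin dehydrogenase 1 (D1007_16716), which degrades cytokinin, averaged 4.13 ± 3.34 CPM in 100% roots and 0.526 ± 0.116 CPM in control roots (adjusted p = 0.026). Its call was lost without any single library other than 100% root 2 (0.06 to 0.09) and with the leaf libraries (0.12), and its log2 change of 2.90 was 2.19 without 100% root 3.

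For jasmonate 5 of 58 tested members (8.62%) were called higher and 8 (13.8%) lower, with 2 and 2 without control root 2. A 9-lipoxygenase (D1007_23297) averaged 329 ± 54.5 CPM in 100% roots and 128 ± 17.1 CPM in control roots (adjusted p = 0.0035, 0.093 with the leaf libraries). Jasmonate-induced oxygenase 2 (D1007_61034), itself named a gibberellin oxidase, averaged 113 ± 18.8 CPM in 100% roots and 36 ± 4.01 CPM in control roots (adjusted p = 0.0073, 0.099 with the leaf libraries). A jasmonate-induced protein of 23 kDa (D1007_11868) had 0.95, 0 and 0.0621 CPM in 100% roots, against 9.12, 8.07 and 7.97 CPM in control roots (adjusted p = 0.012, 0.064 with the leaf libraries), and its log2 change of -4.61 was -7.76 without 100% root 1. For abscisic acid 3 of 37 (8.11%) were called higher and 5 (13.5%) lower. A phosphatase of its signalling, PP2C 37 (D1007_43963), averaged 37.6 ± 9.49 CPM in 100% roots and 7.38 ± 0.814 CPM in control roots (adjusted p = 0.0052), while the receptor PYL5 (D1007_59939) averaged 52.3 ± 7.14 CPM in 100% roots and 80.5 ± 1.12 CPM in control roots (adjusted p = 0.012, 0.051 without control root 2 and 0.055 with the leaf libraries). For strigolactone and mycorrhiza 1 of 15 (6.67%) was called higher and 2 (13.3%) lower. The strigolactone receptor D14 (D1007_37549) averaged 175 ± 17.8 CPM in 100% roots and 359 ± 54 CPM in control roots (adjusted p = 0.0087, 0.11 with the leaf libraries). The symbiosis factor NSP1 (D1007_54873) averaged 12.4 ± 4.01 CPM in 100% roots and 6.05 ± 1.11 CPM in control roots (adjusted p = 0.043, lost without any single library other than 100% root 2, 0.056 to 0.15, with the 6 libraries alone, 0.054, and with the leaf libraries, 0.79).

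Genes of carbon use were called in both directions, 10 of 98 tested members higher and 9 lower, with 1 lower without 100% root 3 and 5 higher and 2 lower without control root 2. The starch synthases SS3a (D1007_15989) and SS4 (D1007_59651) were higher. SS3a had 37.5, 34.5 and 37.4 CPM in 100% roots, against 9.25, 9.25 and 6.46 CPM in control roots (log2 change 2.09 ± 0.15, adjusted p = 0.00017), and 40% roots lay between, at 15.3 to 18.4 CPM. SS4 averaged 40.5 ± 2.92 CPM in 100% roots and 16.5 ± 0.505 CPM in control roots (adjusted p = 0.0013). Sucrose synthase 7 (D1007_61697) averaged 37.4 ± 13.3 CPM in 100% roots and 13.9 ± 1.05 CPM in control roots (adjusted p = 0.032), and its call was lost without any single library other than 100% root 2 (0.079 to 0.11) and with the leaf libraries (0.38). Of 22 tested genes of fermentation and low oxygen, to which it also belongs, 2 were called higher and 1 lower, a hypoxia-induced protein (D1007_34318) at 10.2 ± 3.45 CPM in 100% roots and 30.9 ± 4.67 CPM in control roots (adjusted p = 0.012).

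Among 44 tested genes of malate, citrate and multidrug efflux 5 were called higher and 2 lower, and 1 was higher without control root 2. The higher ones were 4 DETOXIFICATION carriers of the MATE family, some of which release citrate from roots, and a malate channel. DETOXIFICATION 42 (D1007_60108), a citrate carrier of Arabidopsis roots, had 89.3, 160 and 118 CPM in 100% roots, against 51.2, 37.6 and 25.4 CPM in control roots (log2 change 1.65 ± 0.25, adjusted p = 0.0057, 0.1 with the leaf libraries). DETOXIFICATION 30 (D1007_30651) averaged 5.22 ± 1.3 CPM in 100% roots and 1.12 ± 0.338 CPM in control roots (adjusted p = 0.0097, 0.052 without control root 2 and 0.17 with the leaf libraries). For suberin and the Casparian strip 1 of 53 was called higher and 4 lower. The suberin enzymes GPAT5 (D1007_49290), at 57.3 ± 19.3 CPM in 100% roots and 135 ± 16.5 CPM in control roots (adjusted p = 0.019), and CYP86B1 (D1007_62067), at 0.256 ± 0.101 and 1.68 ± 0.309 CPM in the same order (adjusted p = 0.015), were lower. Both calls were lost without 100% root 1 (0.06 and 0.061), control root 2 (0.052 and 0.073) or control root 3 (0.067 and 0.063) and with the leaf libraries (0.54 and 0.26), and that of GPAT5 also without 100% root 3 (0.056). For expansins and wall remodelling 3 of 59 were called higher and 3 lower (5.08% each), near the background. Expansin-A24 (D1007_50697) had 1.1 to 1.74 CPM in 100% roots and 2 reads in all in control roots, a ratio of 37.1 with a 95% counting interval of 9.9 to 313 (adjusted p = 0.0031). Endoglucanase 10 (D1007_05642) averaged 65.1 ± 10.1 CPM in 100% roots and 32.2 ± 6.8 CPM in control roots (adjusted p = 0.029, lost without 100% root 1, 100% root 3, control root 1 or control root 2, 0.065 to 0.11, and with the leaf libraries, 0.17).

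Genes of cell division and protein synthesis stayed near the background. Of 73 tested histones 4 were called higher and 2 lower, and of 39 tested cyclins and replication proteins 3 were called higher and 1 lower. The linker histone H1 locus D1007_43242 averaged 516 ± 154 CPM in 100% roots and 203 ± 53.1 CPM in control roots (adjusted p = 0.013), and the locus D1007_43228 averaged 105 ± 61 CPM in 100% roots and 32.1 ± 6.86 CPM in control roots (adjusted p = 0.015). The replication clamp PCNA (D1007_17838) averaged 13.4 ± 1.16 CPM in 100% roots and 7.5 ± 0.276 CPM in control roots (adjusted p = 0.016), and cyclin D5-2 (D1007_07508) averaged 3.86 ± 0.242 CPM in 100% roots and 11.3 ± 2.47 CPM in control roots (adjusted p = 0.016). These calls were lost without control root 2 (0.052 to 0.073), both H1 calls without control root 3 (0.053 and 0.06), those of PCNA and the cyclin without 100% root 3 (0.061 each), that of PCNA without 100% root 1 (0.051) and that of the cyclin without control root 1 (0.052). With the leaf libraries in the fit, the second H1 locus (0.068), PCNA (0.4) and the cyclin (0.33) were not called. Of 154 tested ribosomal protein genes 5 were called lower and none higher. L22-like (D1007_19082) averaged 5.87 ± 0.186 CPM in 100% roots and 10.9 ± 2.54 CPM in control roots (adjusted p = 0.02, lost without 100% root 1, 100% root 3 or control root 2, 0.056 to 0.087, and with the leaf libraries, 0.057), and L18a-like (D1007_18268) averaged 0.383 ± 0.153 CPM in 100% roots and 1.95 ± 0.263 CPM in control roots (adjusted p = 0.02, lost without any single library other than 100% root 3, 0.053 to 0.069, and with the leaf libraries, 0.057). Of 59 tested NAC factors 1 was called higher and 2 lower. NAC73 (D1007_14310), a wall regulator in Arabidopsis, averaged 14.9 ± 7.28 CPM in 100% roots and 4.06 ± 1.43 CPM in control roots (adjusted p = 0.022), and NAC90 (D1007_09369) averaged 3.44 ± 0.252 CPM in 100% roots and 13.2 ± 3.62 CPM in control roots (adjusted p = 0.031). The NAC73 call was lost without 100% root 1, 100% root 3, control root 2 or control root 3 (0.069 to 0.094), and that of NAC90 without any single library (0.067 to 0.098) and in limma's voom fit (0.05). Neither passed with the leaf libraries in the fit (0.3 and 0.39).

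For phytoalexins and terpenes 1 of 26 tested members was called higher and none lower, and of 9 tested photosystem and light-harvesting genes 1 was called lower, with a summed level of 31.3 to 39.2 CPM in 100% roots and 45.6 to 56.9 CPM in control roots. Some of the largest changes fell outside the lists. A locus described as the receptor UVR8 (D1007_27547), the sensor of ultraviolet B light, had 35, 27.8 and 33.9 CPM in 100% roots, against 1.01, 1.54 and 1.03 CPM in control roots (log2 change 4.70 ± 0.35, adjusted p = 0.0002). LIFEGUARD 4 (D1007_05196), of the BAX inhibitor family that restrains cell death, had 33.6, 23.6 and 41.6 CPM in 100% roots, against 1.57, 0.593 and 0.966 CPM in control roots (4.93 ± 0.89, adjusted p = 0.011, 0.062 without control root 2). A glucosyltransferase matched to UGT13248 (D1007_22241), and itself named UGT74E1, had 83.2, 23.2 and 73 CPM in 100% roots, against 3.78, 2.49 and 1.93 CPM in control roots (4.42 ± 0.73, adjusted p = 0.0082, 0.051 without control root 2). A locus described as bisdemethoxycurcumin synthase (D1007_38814), itself named a chalcone synthase, had 5.44, 2.26 and 24.3 CPM in 100% roots, against 0.0629, 0.237 and 0.423 CPM in control roots (5.32 ± 1.08, adjusted p = 0.017). It was not called without control root 1 (0.061), 2 (0.082) or 3 (0.051, log2 change 6.04), and its change was 3.93 without 100% root 3.

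Among the largest falls, a glycine-rich cell wall protein (D1007_23958) had 0.0633, 0.274 and 0.248 CPM in 100% roots, against 14.2, 9.9 and 7.67 CPM in control roots (log2 change -5.75 ± 0.77, adjusted p = 0.0036). RAFTIN 1A (D1007_09916), a protein of anthers in rice, had 0.0633, 0 and 0.186 CPM in 100% roots, against 20.8, 14.4 and 1.93 CPM in control roots (-7.05 ± 1.32, adjusted p = 0.013), with -8.20 without 100% root 3 and no call in limma's voom fit (0.14). The ripening-related protein grip22 (D1007_40888) had 0.127, 0.685 and 0 CPM in 100% roots, against 10.3, 7.53 and 2.54 CPM in control roots (-4.65 ± 1.03, adjusted p = 0.024), with -6.58 without 100% root 2. Its call was lost without 100% root 1 (0.081), 100% root 3 (0.07, log2 change -4.04), control root 1 (0.081) or control root 2 (0.09), and with the leaf libraries (0.12). In 40% roots it was at 0, 0 and 0.328 CPM.

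Against the roots at 40% organic nitrogen, 1005 genes (4.59%) differed in 100% roots, 526 (2.4%) higher and 479 (2.19%) lower, in the same edgeR fit. At 40% against 0%, 67 genes (0.306%) were called, 36 (0.164%) higher and 31 (0.142%) lower, and 3295 genes had an unadjusted p below 0.05. These comparisons share libraries with the first one, so their values are set side by side and not counted as separate evidence. NRT2.4, NPF6.3, nitrate reductase, nitrite reductase, the root ferredoxin-NADP reductase and HSP70 were higher at 100% than at 40% (log2 changes 4.07, 1.98, 1.76, 3.73, 2.49 and 2.91, adjusted p 0.00068 to 0.0091), while their log2 changes at 40% against 0% were 0.67, 0.65, 0.23, -1.50, -0.51 and 1.04 (adjusted p 0.05 to 0.72). DIR1, GLUTAMINE DUMPER 4 and the purple acid phosphatase had log2 changes of 0.07, -0.09 and 0.01 at 100% against 40% (adjusted p 0.81 to 0.99) and of -2.42, -1.34 and -2.32 at 40% against 0% (adjusted p 0.033 to 0.045). The count at 100% against 40% was 310, 759 and 209 without 100% roots 1, 2 and 3 and 435, 319 and 872 without 40% roots 1, 2 and 3.

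Whether the change at 100% against 0% differed between roots and leaves was tested as an interaction over all 18 libraries. Of 24046 genes, 3827 (15.9%) changed differently in the 2 tissues, 1732 (7.2%) with the more positive change in roots and 2095 (8.71%) in leaves. This split depends on the scaling of the libraries. With library size alone 4710 genes were called, 69.6% of them more positive in roots against 45.3%, and the median difference over all genes moved to 0.36 from 0.04 on the log2 scale. Among the 101 named genes with at least 10 counts in the 6 leaf libraries at 0 and 100%, 31 passed. NPF6.3 is one of them. Its log2 change in roots was 2.63 while leaves averaged 76.6 ± 28.3 CPM at 100% and 113 ± 55.5 CPM at 0%, and the difference of the changes was 2.89 (adjusted p = 0.0025). NAR2.1, 6-phosphogluconate dehydrogenase and PEP carboxylase also had the more positive change in roots, by 1.85, 1.88 and 2.14 (adjusted p 0.025 to 0.035). Nitrite reductase and NRT2.4 did not pass, with differences of -0.29 (adjusted p = 0.86) and 0.97 (0.51), and leaf levels of nitrite reductase were 465, 521 and 1160 CPM at 100%, against 179, 120 and 160 CPM at 0%. HSP70, LHY and UVR8 had differences of -0.30, -0.80 and 0.17 (adjusted p 0.18 to 0.86), so these changes were not shown to differ between the tissues. UVR8 had 203, 166 and 145 CPM in leaves at 100%, against 11.1, 8.66 and 7.27 CPM in leaves at 0%.

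**Figure D5:**
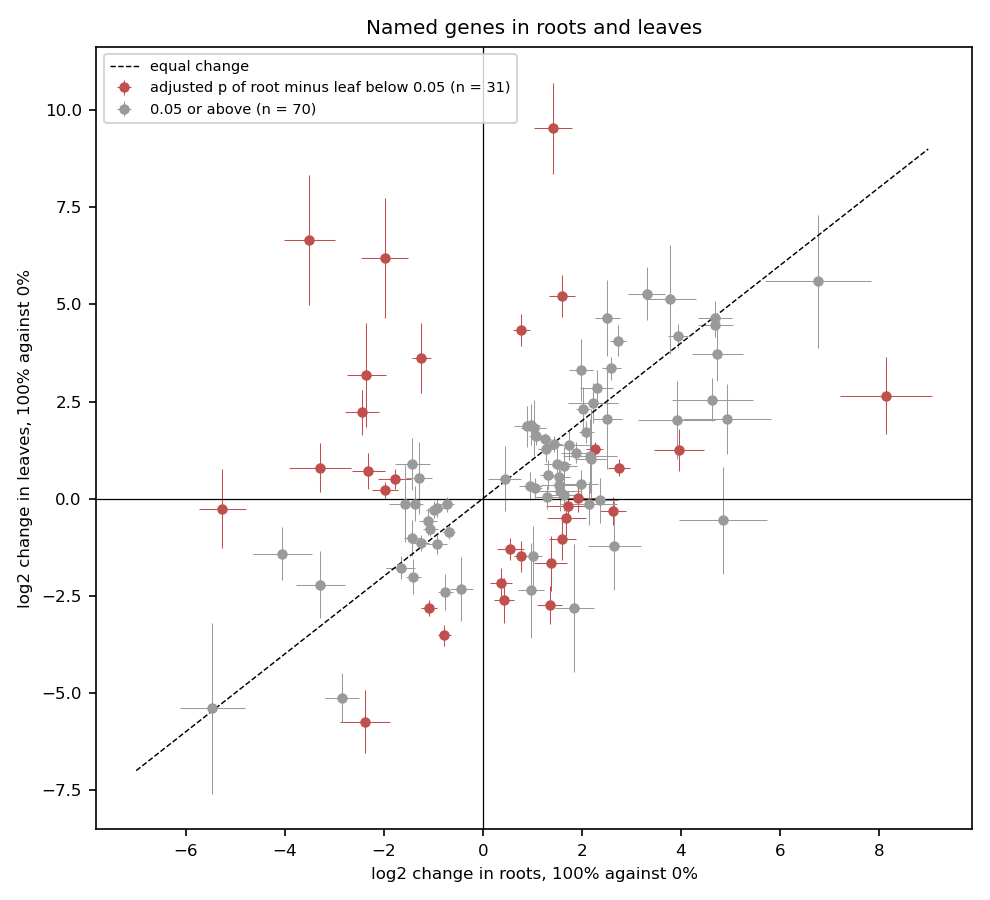
Log2 change at 100% against 0% organic nitrogen in roots (horizontal, fit of the 9 root libraries) and in leaves (vertical, fit of all 18 libraries) for the 101 named genes with enough leaf counts; bars are SE and the dashed line marks equal change. The 31 genes in red passed the test of the difference between tissues, and lie both above and below the line.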

How the data were processed

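RNA was extracted with TRIzol and made into libraries with the NEBNext Ultra RNA kit, per the labels' protocols. The tools named in the submitters' processing notes are HISAT2 2.0.5 and featureCounts 1.5.0-p3, besides CASAVA 1.8, fastp and DESeq2 1.20.0. The notes list mouse builds (GRCm38, mm10), while the loci lie on barley scaffolds. The authors deposited 1 table of whole-number read counts per locus, not normalized, for 18 libraries. Strand and the handling of reads shared by copies are not given in the sources used here. CPM here are counts divided by the library total.

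Genes with enough counts in the 9 root libraries were tested with edgeR 4.0.16 (R 4.3.3), with TMM factors, quasi-likelihood F tests and Benjamini-Hochberg adjustment over all 21895 genes, at a threshold of 0.05. The biological coefficient of variation was 27.7%, with 6 residual degrees of freedom. Root and leaf changes were compared as an interaction in a fit of 18 libraries (24046 genes). A total of 3 counts equals 0.186 to 0.206 CPM in 100% roots and 0.178 to 0.189 CPM in control roots, and such floors and the intervals given cover only counting error. The script was tested on simulated data. Alternatives were DESeq2 1.42.0, limma 3.58.1 (voom), other scalings and filters, a minimum change, other sets of libraries, a replicate block and leaving out each library.

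The members and gene lists were chosen with earlier results of these data known. Of the named genes, 99 follow a rule and 29 were picked after their values were seen. Genes mentioned without a locus number are not counted among them. The rule takes, from called and informatively described genes whose groups do not overlap and whose higher group averages at least 5 CPM, the 10 that rose most and the 10 that fell most. By smallest adjusted p it adds 12 called nitrogen genes and, from every other list with at least 3 called, 2 called genes, and the member with the most reads of each nitrogen list.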

Additional observations from a re-analysis of the deposited data

Results flagged for a closer look

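The change at 100% against 0% organic nitrogen differed between roots and leaves in 31 of the 101 named genes with at least 10 leaf counts, by edgeR's test of the difference itself (adjusted p below 0.05). The values are the log2 change in roots minus that in leaves. None was weighed for a cause.

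The difference was positive, with the more positive change in roots, for these nitrogen and carbon genes. It was 2.89 for NPF6.3, 1.85 for NAR2.1, 1.68 for NPF8.3 (D1007_24918), 2.49 for the glutamine synthetase with the most reads, 2.98 for NLP1 and 1.81 for the amino acid transporter CAT2. It was 4.02 for the alanine-glyoxylate aminotransferase homolog, 2.59 for mitochondrial aspartate aminotransferase, 1.88 for 6-phosphogluconate dehydrogenase, 2.14 for PEP carboxylase 2 and 2.98 for sucrose synthase 7. In roots the glutamine synthetase, NLP1 and CAT2 were not called, so these differences rest largely on leaf changes of -2.18, -2.61 and -1.30. The leaf change was also the larger for the aminotransferase homolog (-2.73, and 1.35 in roots). NPF8.3 fell in both tissues, more in leaves (-2.81, and -1.08 in roots). The difference was also positive for the antiporter CHX20 (5.45), glycolipid transfer protein 3 (2.69), PCNA (2.20) and the ribosomal protein L18a-like (3.30), which had 2 leaf counts at 100%. Glycolipid transfer protein 3 fell in both tissues, more in leaves (-3.52, and -0.78 in roots), and PCNA changed by -1.48 in leaves and 0.78 in roots. Among clock genes the difference was 0.93 for LNK1, 1.89 for cyclic dof factor 2 and 2.67 for REVEILLE 2.

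It was negative for ferredoxin C 2 (-2.27), DapC (-2.34), the purple acid phosphatase (-3.07), amino acid permease 6 (-4.14) and GSTU17 (-4.71). It was -5.58 for the lipid-transfer protein DIR1, -4.92 for WRKY19, -3.61 for HSC70, -3.68 for jasmonate-induced oxygenase 2 and -5.06 for JMJ30, which had 10 counts in all in these leaves. HSC70 and the oxygenase rose in both tissues, more in leaves (4.34 and 5.22) than in roots (0.78 and 1.60). WRKY19 changed by 3.63 in leaves and -1.24 in roots. For NAC90 (-8.23), ERF020 (-10.21) and NPF7.3 (-8.17) the leaf controls held 3, 0 and 1 counts, so these values depend on the prior count of the fit and give no bound.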

How the results depend on the processing

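For 100% against 0% roots (2240 genes), a minimum log2 change of 1 gave 109 genes, DESeq2 3834, limma's voom 4392 and the fit of all 18 libraries 501. Without 1 library the count was 571 to 2086. For 100% against 40% (1005 genes) the minimum change gave 27, DESeq2 2369, the 6 libraries alone 237 and all 18 libraries 183, and without 1 library the count was 209 to 872. For the difference between the root and leaf changes (3827 genes) the minimum change gave 854. Without 1 library the count was 2440 to 4525, the lowest without 100% root 3. RLE factors and library size alone moved the share of these calls more positive in roots to 36% and 69.6%. The causes were not tested. Of the 122 named genes called, 69 were called in all 6 fits without 1 library, and none changed direction under any alternative. Calls were lost for 63 of them with all 18 libraries, for 89 with the minimum change and for 5 to 52 without 1 library. Same-numbered root libraries deviated from their group means with correlations of -0.165 to 0.159 across genes. No pairing by replicate number was thus seen among the root groups, but pairing in some genes is not excluded. Pairing of root with leaf libraries was not checked. A replicate block gave 1496, 430 and 3384 genes in the 3 comparisons, and 10 named calls were lost. With 3 libraries a group, genes near the floor of 3 counts have wide errors, and the fit of their change depends on the prior count.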
